A study of Mus with 6 samples.

Results

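The genes described here are the collagens of the mouse brain, taken as every gene whose symbol in the array annotation has the form Col, a type number, a and a chain number. The rule found 42 genes among the 19505 named genes measured, each with 1 probe set. Expression was measured on 6 Affymetrix whole-transcript arrays of brain tissue from ICR mice, an outbred stock, with 2 arrays in each of 3 groups. Control mice received saline by mouth. SCOP mice, which the labels call the Model group, received by intraperitoneal injection the agent that the labels name scopoletin hydrobromide (SCOP) at 2 mg/kg. CK mice received ginsenoside compound K (CK), a metabolite of ginseng saponins, by mouth at 40 mg/kg together with SCOP at 2 mg/kg. Before removal of the brain the mice went through behavioural tests, among them passive avoidance with foot shocks. The labels call the samples biological replicates but do not say whether a sample is 1 brain or pooled tissue, so p-values measure the spread between these samples, which may be technical. The values are log2 expression levels made by RMA, which normalizes between arrays, so that 1 unit is a doubling.

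Collagens are trimers of alpha chains wound into a triple helix, in which glycine recurs at regular steps. Fibroblasts of the meninges and of the perivascular space make the fibrillar types, while endothelial cells, pericytes and smooth muscle cells lay down the type IV network of vessel basement membranes. Brain parenchyma itself holds little fibrillar collagen, and some unusual collagens with a transmembrane segment are made by neurons. The 42 genes were grouped into 11 fibrillar chains, 6 chains of the basement membrane type IV, 6 chains of the beaded filament type VI, 8 fibril-associated chains with interrupted helices (FACIT), 3 network-forming chains, 4 transmembrane chains, 2 multiplexins and 2 others. Col7a1 and Col12a1 were not analysed here.

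Most collagen genes were near the background of the arrays. A value was treated as dim when it was under the level that 95% of the 5222 negative control probe sets of the same array did not exceed, which was 4.98 to 5.16 on 5 arrays and 5.55 on SCOP replicate 2. Of the 42 genes, 11 were above that level on all 6 arrays, 5 on some arrays and 26 on none. Over all genes, 48.5% were dim on every array. Collagens known from meninges and vessels were above background only in part. Col1a1, Col4a1 and Col6a1 were above it on all 6 arrays, and Col1a2 was on 3. Col3a1, Col4a2, Col5a1, Col5a2, Col6a2, Col6a3 and Col18a1, which the same tissues are known to use, were dim on all 6. The other genes above background on all 6 arrays were Col8a2, Col9a3, Col11a2, Col13a1, Col16a1, Col20a1, Col25a1 and Col28a1. In whole brain tissue, fewer cells of a type and less RNA per cell cannot be told apart.

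Over all genes SCOP replicate 2 was unlike the rest, with correlations of 0.965 to 0.969 to the 5 others, which reached 0.990 to 0.993 in their closest pairs. Its background control probe sets of at least 16 G or C bases had a mean of 6.10, against 4.99 to 5.19 on the other arrays. Collagen results are given with and without it.

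**Figure D1:**
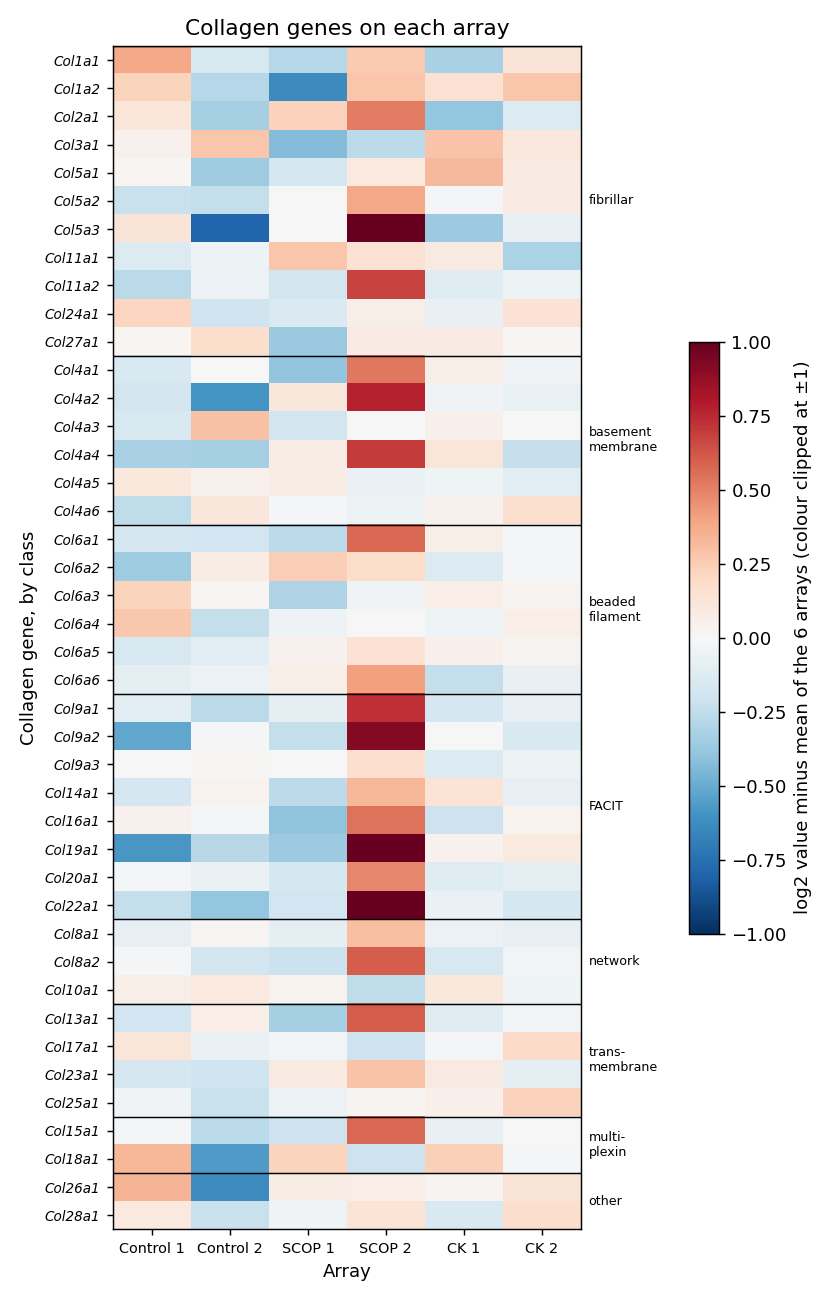
Each row is 1 collagen gene and each column 1 array; colour gives the log2 value minus the gene's mean over the 6 arrays, clipped at 1 unit either way, with genes ordered by class. The SCOP replicate 2 column is the reddest, and 24 of the 42 genes had their highest value there.

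No collagen gene differed between groups at an adjusted p under 0.05 in limma with Benjamini-Hochberg adjustment over all 19505 genes. The smallest adjusted p among the 42 was 0.864 in SCOP against Control, 0.89 in CK against SCOP and 0.9999 in CK against Control. Over all genes that threshold was passed by 0% in each of the 3 comparisons. At an unadjusted p under 0.05, 3 collagens differed in SCOP against Control (background 3.31% of all genes), 2 in CK against SCOP (2.57%) and 0 in CK against Control (1.44%). In SCOP against Control Col4a2 and Col4a4 had higher values (background 2.25% of all genes) and Col3a1 had lower values (1.06%). In CK against SCOP Col3a1 had higher values (1.14%) and Col2a1 lower values (1.43%). In CK against Control the background was 0.969% higher and 0.467% lower. The 4 genes named were dim on every array, so their differences are given on the log2 scale with no fold. The methods' t-test gave 0, 1 and 3 collagens at an unadjusted p under 0.05 (background 2.83%, 2.99% and 5% of all genes), with Col3a1 in CK against SCOP and Col5a2, Col6a1 and Col6a5 in CK against Control.

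Collagens reached an adjusted p under 0.05 only in a fit where 1 array, SCOP replicate 2, stood for its group. Without SCOP replicate 1, so that SCOP replicate 2 alone stood for its group and was taken to vary as the others do, 11 collagens had higher values in SCOP than in Control at an adjusted p under 0.05 (background 5.49% of all genes higher) and 8 had lower values in CK than in SCOP (background 5.23% lower). The genes called in both were Col4a2, Col4a4, Col8a2, Col9a1, Col9a2, Col11a2, Col19a1 and Col22a1, and those called only in the first were Col5a3, Col6a1 and Col15a1. These comparisons share SCOP replicate 2, a single array whose spread was taken from the Control and CK arrays. The calls thus describe that array and cannot show a difference of the SCOP group. Leaving out any of the other 5 arrays in turn gave no collagen at that threshold. At an unadjusted p under 0.05, no collagen differed in SCOP against Control without Control replicate 2 (background 1.29%), nor in CK against SCOP without CK replicate 1 (0.923%) or without CK replicate 2 (0.764%).

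Col3a1 encodes the type III chain that forms fibrils with type I collagen in soft tissue and vessel walls. It read 3.92 and 4.16 on the Control arrays, 3.44 and 3.62 on the SCOP arrays and 4.16 and 3.98 on the CK arrays. Both SCOP arrays were lower than all 4 others, and the gene was dim on all 6. The log2 difference of SCOP minus Control was -0.51 (standard error 0.21, limma adjusted p of 0.864), and that of CK minus SCOP was 0.54 (standard error 0.21, limma adjusted p of 0.89). Without SCOP replicate 2 these were -0.59 and 0.63. The comparisons share the SCOP arrays. CK and Control differed by 0.04, with a 95% confidence interval from -0.44 to 0.51. Over the 42 genes, 2 had both SCOP arrays below all Control and CK arrays (background 6.14% of all genes) and 6 had both above (background 6.78%). The other gene with low SCOP values was Col6a3, the long chain of the type VI filament, at 3.79 and 4.06 on the SCOP arrays and 4.11 to 4.32 on the others.

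The partners of Col3a1 in meningeal fibrils, Col1a1 and Col1a2, encode both chains of type I collagen. Col1a1 read 6.10 and 5.55 in Control, 5.43 and 5.98 in SCOP and 5.39 and 5.85 in CK. Each group spanned nearly the same range, and the spread within a group exceeded every difference between groups. The difference of SCOP minus Control was -0.12, with a 95% confidence interval from -0.79 to 0.55, and that of CK minus Control was -0.21, from -0.88 to 0.47. Col1a2 read 5.36 and 4.86 in Control, 4.50 and 5.42 in SCOP and 5.29 and 5.42 in CK. The SCOP arrays held both the lowest value and the highest, the latter level with CK replicate 2, and all groups overlapped. Without SCOP replicate 2, with the spread of SCOP replicate 1 taken from the remaining groups, the difference of Col1a2 from Control was -0.61 (limma adjusted p of 0.984). In that fit 3 collagens, Col1a2, Col3a1 and Col27a1, had lower values in SCOP at an unadjusted p under 0.05 (background 1.83%), and none had higher values (background 2.92%). All 3 are fibrillar, but of the 11 fibrillar genes 7 had differences below 0 in that fit and 4 above, with a median of -0.02. In CK against SCOP that fit gave higher values for Col1a2 and Col3a1 (background 1.93%) and lower values for none (background 1.83%), and in CK against Control higher values for Col19a1 (background 3.26%) and lower values for none (background 1.93%).

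Among the other fibrillar chains, Col2a1, the main collagen of cartilage, read 3.52 and 3.06 in Control, 3.63 and 3.91 in SCOP and 3.01 and 3.26 in CK. The SCOP arrays were the highest. CK minus SCOP was -0.63 (standard error 0.24, limma adjusted p of 0.89), and -0.49 without SCOP replicate 2. Col11a2, a minor chain of cartilage fibrils, read 5.83 and 6.05 in Control, 5.92 and 6.78 in SCOP and 5.98 and 6.05 in CK. Here only SCOP replicate 2 left the range of the other arrays. Col5a3, a chain of the regulatory type V collagen, had the widest spread of the class, with 3.26 to 4.19 on 5 arrays and 5.16 on SCOP replicate 2. The remaining fibrillar genes, Col5a1, Col5a2, Col11a1, Col24a1 and Col27a1, were dim on all arrays. Their SCOP minus Control differences lay between -0.24 for Col27a1 and 0.42 for Col5a2.

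Type IV collagen forms the sheet of the basement membrane, and its genes lie next to each other in pairs. Col4a1 and Col4a2 encode the chains found in every vessel. Col4a1 read 5.26 and 5.42 in Control, 5.02 and 5.94 in SCOP and 5.47 and 5.38 in CK. The SCOP replicates lay on either side of the other 4 arrays, and SCOP minus Control was 0.14, with a 95% confidence interval from -0.55 to 0.83. Its neighbour and helix partner Col4a2 read 4.42 and 4.005 in Control, 4.72 and 5.38 in SCOP and 4.57 and 4.54 in CK. Both SCOP arrays were above all others, and the difference from Control was 0.83 (standard error 0.27, limma adjusted p of 0.864). Without SCOP replicate 2 it was 0.50, while that of Col4a1 was -0.32.

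Col4a4, a chain of the specialised basement membranes of kidney and inner ear, read 3.92 and 3.91 in Control, 4.31 and 4.94 in SCOP and 4.36 and 4.01 in CK. SCOP and CK were each above Control without overlap. SCOP minus Control was 0.71 (standard error 0.26, limma adjusted p of 0.864), and 0.40 without SCOP replicate 2. Its neighbour Col4a3, a chain of the same trimer, had a difference of -0.16, while those of the neighbours Col4a5 and Col4a6 were -0.07 and 0.05. Among the other neighbouring collagen genes, Col3a1 at -0.51 lies next to Col5a2 at 0.42, and Col9a1 at 0.51 next to Col19a1 at 0.79.

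**Figure D2:**
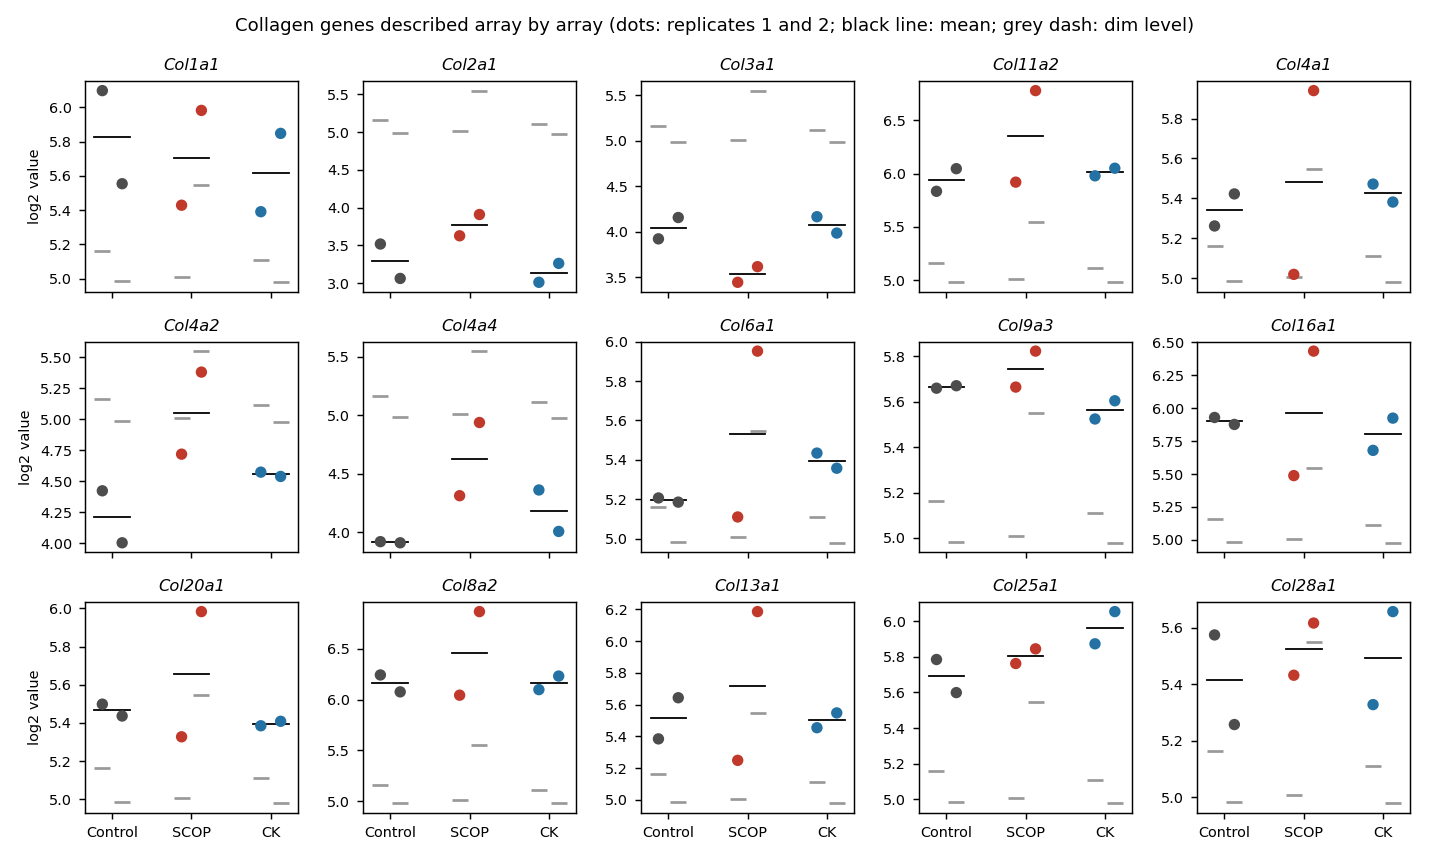
The 15 collagen genes described array by array, with log2 value on the vertical axis and the groups on the horizontal axis; dots are the arrays, black lines the means of 2 arrays and grey dashes the dim level of each array. Col2a1, Col3a1, Col4a2 and Col4a4 lie below the dashes on all arrays, and among genes above them SCOP replicate 2 is the top dot for Col4a1, Col6a1, Col8a2, Col9a3, Col11a2, Col13a1, Col16a1 and Col20a1.

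Type VI collagen forms beaded filaments near basement membranes and around nerves. Col6a1 read 5.21 and 5.19 in Control, 5.11 and 5.95 in SCOP and 5.43 and 5.36 in CK. The CK arrays were both above Control, with a difference of 0.20 and a 95% confidence interval from -0.45 to 0.85, and SCOP replicates 1 and 2 were the lowest and highest of all arrays. Its neighbour Col6a2 had a SCOP minus Control difference of 0.36, and Col6a3 of -0.29. Col6a4, Col6a5 and Col6a6 were dim throughout, with differences between -0.04 for Col6a4 and 0.31 for Col6a6.

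FACIT collagens sit on the surface of fibrils and link them to other matrix. All 8 had their highest value on SCOP replicate 2, where over all genes 32.6% did. Col16a1, a chain found near basement membranes, read 5.93 and 5.88 in Control, 5.49 and 6.43 in SCOP and 5.68 and 5.92 in CK. The SCOP replicates were the lowest and the highest array. Col20a1 read 5.50 and 5.44 in Control, 5.33 and 5.98 in SCOP and 5.39 and 5.41 in CK, again with the SCOP replicates at both ends. Col9a3, a chain of cartilage type IX collagen, varied least of this class, reading 5.66 and 5.67 in Control, 5.66 and 5.82 in SCOP and 5.52 and 5.60 in CK. Its partners Col9a1 and Col9a2 on SCOP replicate 2 exceeded the mean of the remaining 5 by 0.88 and 1.11, against 0.20 for Col9a3. For Col19a1, which subsets of neurons make, that excess was 1.29, and for Col22a1, known from the junction of muscle and tendon, 1.26. In CK against Control, where no SCOP array enters the difference, Col19a1 read 4.75 and 4.81 against 4.12 and 4.43. That difference of 0.50 had a standard error of 0.41 (limma adjusted p of 0.9999). This error pools the spread of all groups, with standard deviations of 0.22 in Control, 1.01 in SCOP and 0.04 in CK. With only the 4 Control and CK arrays fitted, Col19a1 was at an unadjusted p under 0.05 in limma (background 5.18% of all genes).

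Of the network-forming chains, Col8a2, a component of the cornea and of vessel walls, read 6.24 and 6.08 in Control, 6.04 and 6.87 in SCOP and 6.10 and 6.23 in CK. Control and CK covered the same values, with a difference of 0.01 and a 95% confidence interval from -0.65 to 0.66. Col8a1, its partner chain, ranged from 4.68 to 5.08 and Col10a1, from cartilage that turns to bone, from 1.82 to 2.18. Both genes were dim on all arrays. Of the multiplexins, whose ends are cut to yield anti-angiogenic fragments, Col15a1 ranged from 4.76 to 5.02 on 5 arrays and was 5.60 on SCOP replicate 2. Col18a1, a vessel basement membrane component, ranged from 3.99 to 4.89, with both extremes in Control.

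The transmembrane collagens include Col25a1, a neuronal collagen whose shed part is known to bind amyloid in plaques. Col25a1 read 5.78 and 5.60 in Control, 5.76 and 5.84 in SCOP and 5.87 and 6.05 in CK. Both CK arrays were above all 4 others. CK minus Control was 0.27 (standard error 0.20, limma adjusted p of 0.9999), with a 95% confidence interval from -0.19 to 0.73, and CK minus SCOP was 0.16, from -0.30 to 0.62. Col13a1, which helps to build the neuromuscular junction, read 5.38 and 5.64 in Control, 5.25 and 6.18 in SCOP and 5.45 and 5.55 in CK. The SCOP replicates again lay at both ends. Col23a1 and Col17a1, the latter from the anchoring plaques of skin, were dim on all arrays, with SCOP minus Control differences of 0.37 and -0.14. Col28a1, known from peripheral nerve sheaths, read 5.57 and 5.26 in Control, 5.43 and 5.62 in SCOP and 5.33 and 5.66 in CK, and all groups overlapped. Col26a1 ranged from 4.01 to 4.98, both in Control.

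Across the family, SCOP replicate 2 was the array that differed. On it 34 of the 42 collagens were above the mean of the other 5 arrays (background 50.9% of all genes), 24 were the highest of all arrays (background 32.6%) and 2 were the lowest (background 33.2%). The median collagen exceeded that mean by 0.33, against 0.01 over all genes. All 11 genes above background did so, by a median of 0.63, while the 7022 genes above background on all arrays had a median of -0.14. The dim level was 5.55 on SCOP replicate 2 and 4.98 to 5.16 elsewhere, so both sets favour genes high on that array. Col4a1, Col6a1 and Col20a1 read under 5.55 on the other 5 arrays, so their place among the 11 rests on SCOP replicate 2. Col13a1 and Col28a1 also averaged under 5.55 on the other 5 arrays. For all of these genes, passing the filter alone placed SCOP replicate 2 above the mean of the others. The values over the 11 were thus partly fixed by the filter. SCOP replicate 1 did not share the shift. Its median was -0.11 over the 42 genes and -0.26 over the 11, of which 10 were below the mean of the other arrays. For each array except SCOP replicate 2 that mean includes SCOP replicate 2, which lowers the value. The Control and CK arrays had medians of -0.16 to -0.01 over the 42 genes and of -0.15 to -0.02 over the 11. In the SCOP group the replicates differed by a median of 0.39 over the collagens, compared with 0.20 in Control and 0.12 in CK. Over all genes these medians were nearly the same, at 0.37, 0.18 and 0.15, so this spread was not particular to collagens. With quantile normalization, cyclic loess or centred medians 25 collagens were highest on SCOP replicate 2. The higher background of GC-rich control probe sets on the same array was larger at higher GC content, from 0.00 above the others at 3 G or C bases to 0.82 at 16 and 1.11 at 25. Its part in the collagen values was not tested.

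**Figure D3:**
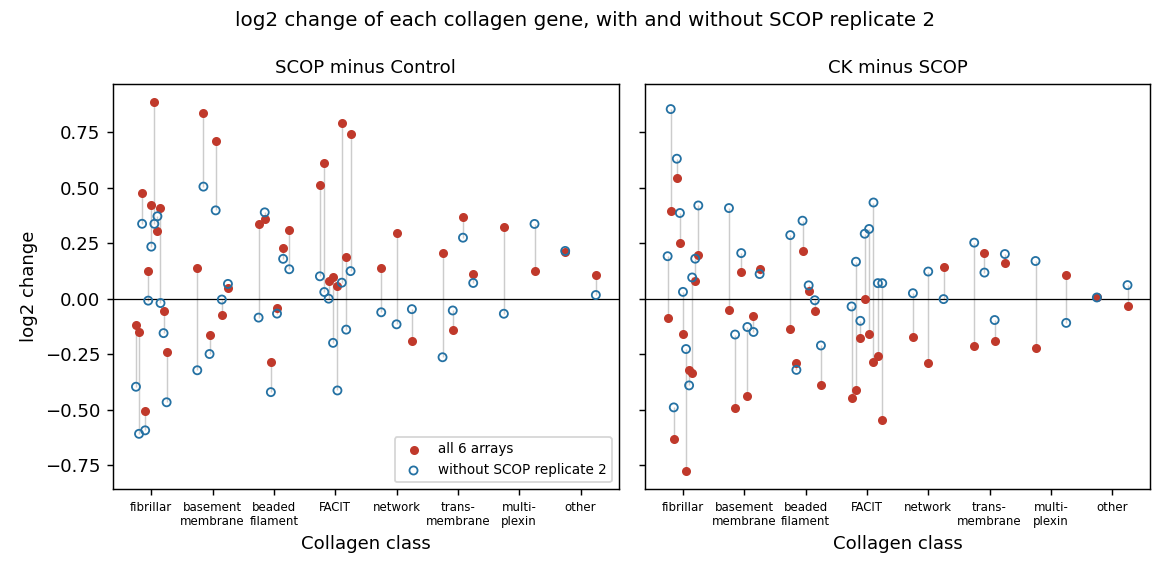
The log2 change of each collagen gene, by class, in SCOP minus Control and in CK minus SCOP; filled dots use all 6 arrays and open circles leave out SCOP replicate 2, with a grey line joining both values of a gene. The median over the 42 genes went from 0.16 to -0.01 in SCOP minus Control and from -0.15 to 0.08 in CK minus SCOP.

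The medians of the group comparisons turned on that array. In SCOP against Control the median log2 change of the 42 genes was 0.16, beside 0.00 over all genes, with 31 changes above 0 and 11 below. Without SCOP replicate 2 the median was -0.01, with 19 above 0 and 23 below. The FACIT median went from 0.35 to 0.01, and the fibrillar median from 0.13 to -0.02. In CK against SCOP the collagen median was -0.15, beside 0.02 over all genes, and without SCOP replicate 2 it was 0.08. The arrays of 11 collagens were higher without overlap in SCOP than in Control (background 15%), and those of 3 were lower (background 13.3%). In CK against SCOP 6 were higher without overlap (background 15.5%) and 8 lower (background 14.3%). CK against Control does not use the SCOP arrays in the differences, but its standard errors and confidence intervals pool the spread of all 6 arrays. There the median was 0.07, beside 0.01 over all genes, with 10 collagens higher without overlap (background 18.4%) and 3 lower (background 15.7%). Those higher included Col4a2, Col4a4, Col6a1, Col19a1 and Col25a1, and those lower were Col4a5, Col9a3 and Col20a1.

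Markers of the cells that make collagen were on average lower on SCOP replicate 2, where the collagen genes were higher. The 22 measured markers of meningeal and perivascular fibroblasts, of which 10 were above background on all arrays, averaged 5.69 there and between 5.96 and 6.06 elsewhere. Of them 13 were lowest on that array (background 33.2% of all genes and 49.2% of those above background on all arrays). Another 5 were highest there (background 32.6% and 28.4%). The 18 pericyte and smooth muscle markers averaged 4.59 there against 4.89 to 5.11, with 10 lowest and 4 highest on that array. The 18 endothelial markers averaged 5.63 against 6.05 to 6.24, with 12 lowest and 2 highest. Dcn, the decorin of meningeal fibroblasts, was highest there, at 7.54 against 6.91 to 7.24. Foxc1, a transcription factor of the meninges, was lowest there, at 4.50 against 5.07 to 5.58. The lower average was not confined to cells that make collagen. Markers of excitatory neurons averaged 8.27 there against 8.998 to 9.07. Those of choroid plexus (5.03), astrocytes (8.05), oligodendrocytes (8.31) and microglia (5.74) also had their lowest mean there, while those of skeletal muscle did not. The part of tissue makeup in the collagen values was not tested. Without SCOP replicate 2 the median change of SCOP against Control was -0.01 for the fibroblast markers, -0.05 for the pericyte and smooth muscle markers and 0.15 for the endothelial markers. Bone and cartilage markers averaged 3.91 on that array against 3.93 to 4.17, with 2 of 13 above background on all arrays.

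**Figure D4:**
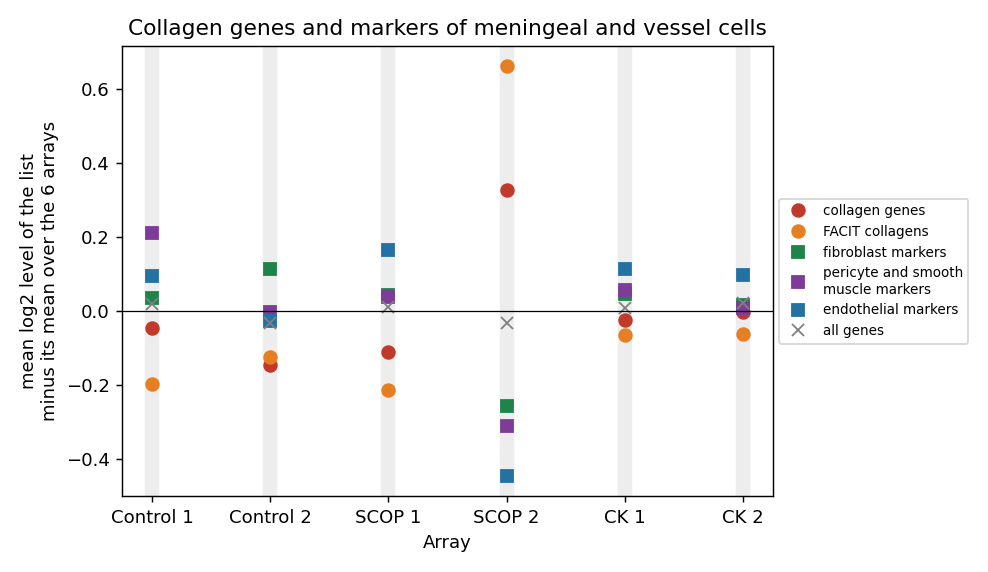
Mean log2 level of each gene list on each array, minus the mean of that list over the 6 arrays; circles are collagen genes, squares are marker lists and crosses all genes. On SCOP replicate 2 the collagen lists are at the top and the fibroblast, pericyte and smooth muscle, and endothelial markers at the bottom.

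Genes that make, trim, bind and degrade collagen gave few calls. Of 29 measured genes of collagen maturation, 2 were higher in SCOP than in Control at an unadjusted p under 0.05 and none lower (background 2.25% and 1.06%). They were Plod2, a lysyl hydroxylase for cross-links, with 3.89 and 3.54 in Control, 4.24 and 4.63 in SCOP and 4.19 and 4.47 in CK, and P3h1, a prolyl hydroxylase, with 4.02 and 3.96, 4.51 and 4.50, and 4.33 and 4.21. For both, each treated group was above Control on all arrays, and both genes were dim throughout. Their SCOP minus Control differences were 0.72 and 0.52 (standard errors 0.24 and 0.19, limma adjusted p of 0.864 for both), and 0.53 and 0.52 without SCOP replicate 2. In CK against Control 2 maturation genes had higher values at that threshold (background 0.969%), Plod2 by 0.62 and P4ha3, a prolyl 4-hydroxylase subunit, by 0.51. Serpinh1, the collagen chaperone of the endoplasmic reticulum, ranged from 4.07 to 4.68 and Lox, which cross-links fibrils, from 1.66 to 2.64. Sparc, a collagen-binding protein that is abundant in brain endothelium and glia, ranged from 9.74 to 10.51, and its highest array was CK replicate 2.

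Of 30 measured matrix partners of collagen, 1 was higher and 1 lower in SCOP than in Control at that threshold (background 2.25% and 1.06%). Lama5, a laminin chain of basement membranes, had a difference of 0.84, and Lamb1, another laminin chain, of -1.10. Lamb1 read 3.44 to 3.84 on 5 arrays and 1.73 on SCOP replicate 2, and its difference without that array was -0.25. That of Lama5 was 0.55. In CK against SCOP Lamb1 was the partner gene with higher values at the threshold (background 1.14%), with a difference of 1.23, and with 0.38 without SCOP replicate 2. Lum, the lumican of collagen fibrils, ranged from 3.36 to 4.11. None of the 16 measured genes of collagen breakdown and none of the 9 measured receptors passed in any comparison, beside 3.31%, 2.57% and 1.44% of all genes. Mmp2, a gelatinase, ranged from 4.03 to 4.45, Timp1, its inhibitor family member, from 2.91 to 3.50, and the collagen receptor kinase Ddr1 from 3.65 to 4.88. Median changes of SCOP against Control were 0.05 for maturation, -0.12 for partners, 0.09 for breakdown and -0.03 for receptors. Without SCOP replicate 2 they were 0.11, 0.03, -0.01 and 0.02, so the last 3 had the opposite sign.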

How the data were processed

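Values were used as the authors deposited them, on the log2 scale and 1 per probe set; the submitters' processing notes name RMA, and its version and genome build are not stated in them. This method subtracts background, equalises the arrays and summarises probes, so total RNA cannot be compared. Of 22206 transcript probe sets, 19572 had 1 symbol in the platform annotation, and for the 55 genes with several the probe set of highest mean was kept, leaving 19505 genes. All 42 collagen symbols were found by Entrez identifier in a mouse RefSeq table (GRCm38.p6). A single limma 3.58.1 model under R 4.3.3 held the 6 arrays (lmFit, eBayes, 3 residual and 5.08 prior degrees of freedom). Benjamini-Hochberg adjustment was over all genes, with no filter. The model was also run on simulated arrays that had the same spread in each group and no outlying array. That simulation cannot show how the model behaves with an array such as SCOP replicate 2. With 2 arrays a group, exact permutation p-values cannot be lower than 0.333. Members, lists and tests were chosen with earlier results of these data known. Genes described array by array were those above the dim level on all arrays or with an unadjusted p under 0.05 in any comparison; Col1a2, Col6a3 and Col19a1 were added after their values were seen. From the other lists they were up to 4 with the smallest p, besides Serpinh1, Sparc, Lox, Mmp2, Timp1, Ddr1, Dcn and Lum.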

Additional observations from a re-analysis of the deposited data

How the results depend on the processing

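No collagen passed an adjusted p under 0.05 in limma in any of the 3 comparisons under the alternatives other than leaving out arrays in turn. With arrays left out in turn that count ranged from 0 to 11 in SCOP against Control and from 0 to 8 in CK against SCOP, and was 0 in CK against Control; the highest values came without SCOP replicate 1. The count at an unadjusted p under 0.05, which was 3, 2 and 0, ranged from 0 to 19, from 0 to 17 and from 0 to 1 over the arrays left out; the 19 and 17 came without SCOP replicate 1, where 34.5% of all genes passed in each comparison. Leaving out genes dim on every array, 26 collagens among them, made it 0 in the first comparison and 0 in CK against SCOP, since none of the called genes remained. It was 0, 1 and 3 with the methods' t-test, 1 in CK against SCOP with array medians centred, and 1 in CK against Control with only the 4 arrays compared (5.18% of all genes). The median log2 change of the collagens ranged from -0.01 to 0.33, from -0.29 to 0.082 and from 0.02 to 0.10 over the arrays left out, and the 0.082 in CK against SCOP was without SCOP replicate 2. The 4 genes at an unadjusted p under 0.05 kept their direction in all 50 values under the other settings, arrays left out in turn aside. Of these values 42 had a p under 0.05. Most of these settings left the log2 change itself as it was, so only the other normalizations could have turned a direction. With arrays left out in turn, each of these differences had a p of 0.05 or more in some fits. Same-numbered replicates did not deviate together over all genes (correlations of 0.024, -0.0049 and -0.028). With 2 arrays a group these values cannot show whether such replicates shared more than a number. With a replicate block the counts were 3, 2 and 0, with Col19a1 in the place of Col3a1 in SCOP against Control. Leaving out SCOP replicate 2, chosen after seeing the data, changed the count of collagens without overlap from 14 to 26 in SCOP against Control (61.9%, beside 64.4% of all genes) and from 14 to 33 in CK against SCOP (78.6%, beside 68% of all genes), where a group of 1 array overlaps less by construction. Apart from these, the cause was not tested.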
